A study of Homo sapiens with 183 samples.

Results

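RUVBL1 was knocked out in BxPC-3, a human pancreatic ductal adenocarcinoma line of the basal-like kind, and messenger RNA was measured on day 5 after infection. The knockout group held 4 libraries labelled sgRUVBL1 and the control group 4 libraries labelled sgRosa, whose guides are named for the ROSA26 locus. The members described here are the 12352 genes averaging 1 TPM or more in these 8 libraries, of 19875 gene names in the table, and the 8 libraries stand among 183 in the whole series. All libraries came from cells that stably carried Cas9 and were infected with a lentiviral guide vector bearing puromycin resistance and GFP. The controls thus also carried Cas9 and a vector, but whether their guides cut DNA in these cells was not tested here. The same experiment held 3 libraries of RUVBL2 knockout (sgRUVBL2), 4 of KLF5 knockout (sgKLF5), and 2 each of CDK1 and RPA3 knockout (sgCDK1 and sgRpa3), which are used below as comparisons. For RUVBL1, RUVBL2, KLF5 and ROSA26 the study's methods give 2 guides with n = 2 libraries for each, and the labels do not say which library carries which guide. The cells are an edited pool, not a clone, so a transcript level averages over edited and unedited cells, and fewer cells of a type and less RNA per cell cannot be told apart.

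RUVBL1 and RUVBL2 are closely related AAA+ ATPases that assemble together into hexameric rings. The rings are core parts of the chromatin remodellers INO80, SRCAP and TIP60 and, with RPAP3 and PIH1D1, of the R2TP cochaperone, which helps to assemble RNA polymerase II, small nucleolar ribonucleoproteins and the PIKK kinases such as mTOR and ATM. KLF5 is a zinc finger transcription factor of epithelial cells, and the study asked whether RUVBL1 and RUVBL2 act with it in pancreatic cancer cells.

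Levels are in transcripts per 1e+06 (TPM), a share of all transcripts corrected for length. Since the values of each library sum to 1e+06, sequencing depth cannot be read from them. Genes reaching 1 TPM were counted in its place: 12228 to 12378 in sgRosa and 12188 to 12582 in sgRUVBL1. The third sgRUVBL2 library stood apart, with 11788 such genes. Replicates 1 and 2 of sgRosa also lay apart from replicates 3 and 4, with an SD of log2 differences of 0.323 to 0.345 across the pairs against 0.262 and 0.265 within them, and no batch label separates them. Of 10 ductal markers 9 passed the filter, with a summed level of 14700 to 15500 TPM in sgRosa and 13500 to 15100 TPM in sgRUVBL1, and the duct chloride channel CFTR was near 0. The 9 fibroblast markers summed to 5.53 to 8.9 TPM and 7.61 to 9.41 TPM. The 8 acinar and islet markers in the table summed to 1.99 to 3.21 TPM and 2.06 to 2.49 TPM, with CPA1 and SST listed at 0 in all 8 libraries. The 9 leukocyte markers summed to 31.1 to 45.8 TPM and 34.8 to 40.4 TPM, with MS4A1 listed at 0, and the 6 endothelial markers to 8.92 to 9.87 TPM and 9.8 to 14.4 TPM.

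The targeted transcript fell. RUVBL1 stood at 126, 119, 102 and 99.9 TPM in sgRosa and at 50.05, 51.7, 52.8 and 45.4 TPM in sgRUVBL1. The groups were far apart and the knockout libraries close to each other. The log2 fold change was -1.14 (SE 0.07, limma adjusted p = 1.07e-07, n = 4 against 4). All fold changes are differences of log2(TPM + 1), which understate the change of genes at low levels. The partner RUVBL2 gave 216, 256, 209 and 206 TPM against 230, 203, 209 and 188 TPM, with a difference of -0.10 (SE 0.12, limma adjusted p = 0.648), and the groups overlapped. KLF5 gave 344, 308, 354 and 335 TPM against 297, 325, 305 and 364 TPM, also overlapping (-0.06, SE 0.09, limma adjusted p = 0.726). TP63, which encodes the p63 factor of basal epithelium, ranged from 104.7 to 110.96 TPM in sgRosa and from 76.3 to 104 TPM in sgRUVBL1. All 4 knockout libraries lay below the controls, yet the difference did not pass the test (-0.19, SE 0.13, limma adjusted p = 0.361).

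**Figure D1:**
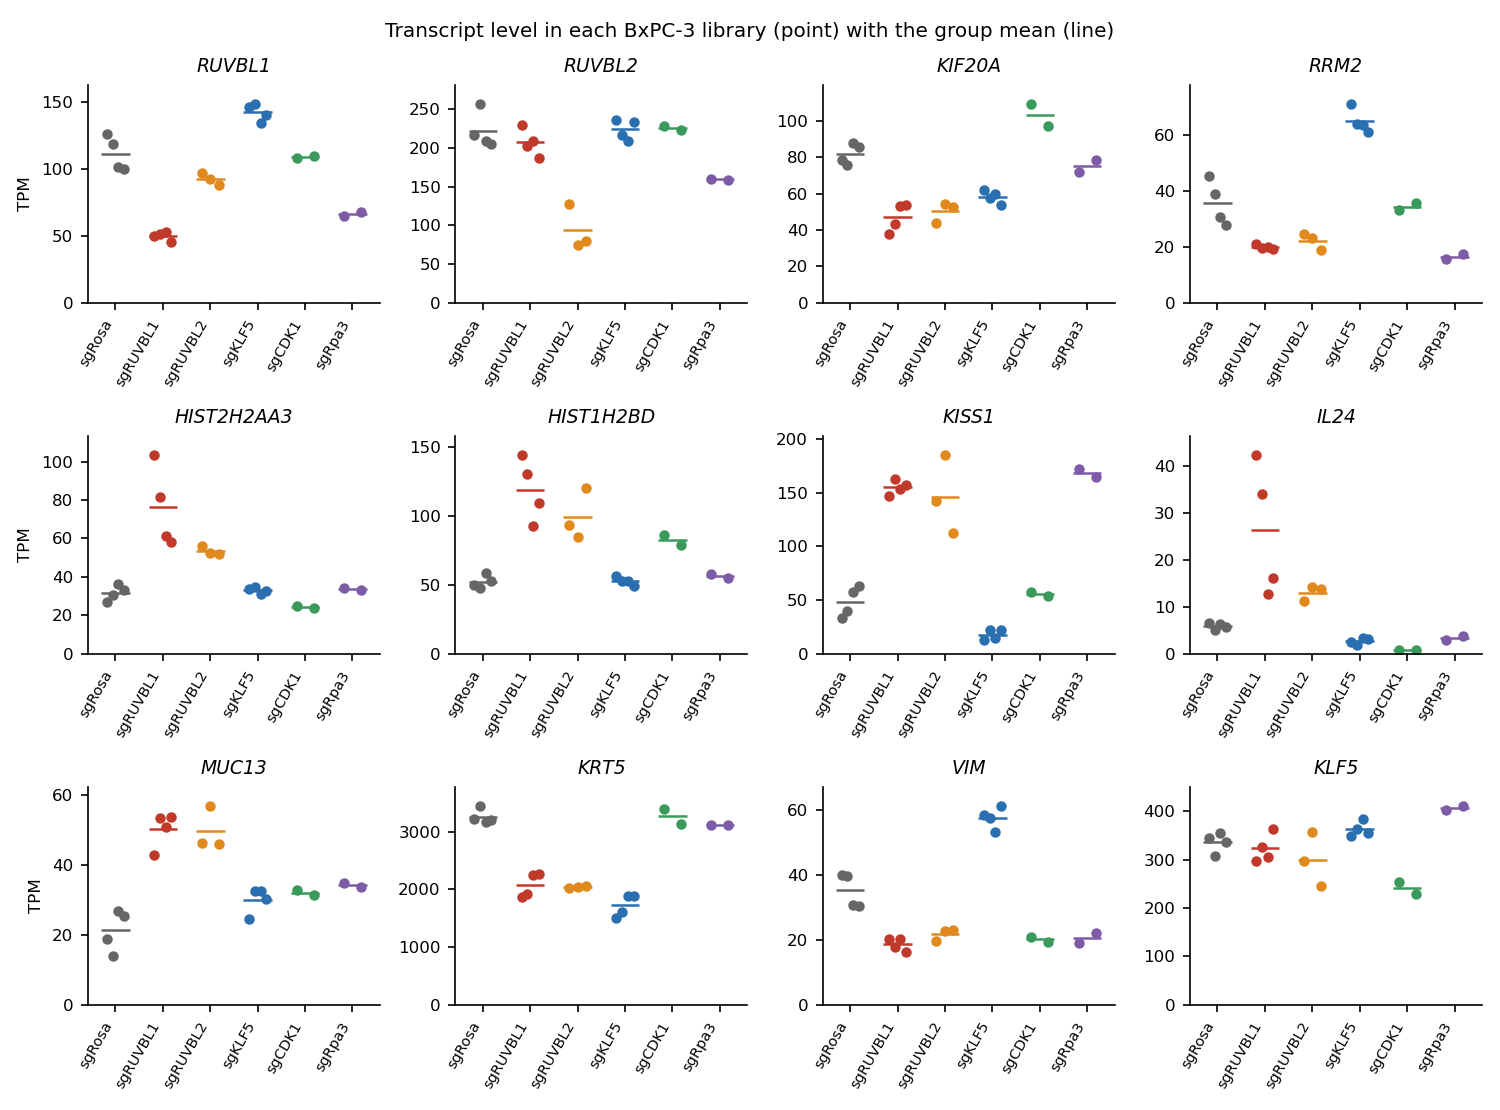
Level in TPM (vertical axes, each from 0) of 12 genes in every library of the BxPC-3 experiment, with points for libraries, lines for group means and groups along the horizontal axes. RUVBL1 lies at 45.4 to 52.8 TPM in sgRUVBL1 and 99.9 to 126 TPM in sgRosa, while the RUVBL2 and KLF5 points of these groups overlap.

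RUVBL1 knockout changed 1996 genes at an adjusted p under 0.05 in limma, 16.2% of those tested. Of these, 1043 were higher (8.44%) and 953 lower (7.72%), and the median over all tested genes was 0.00801 on the log2 scale. Most shifts were modest: the median was 0.418 among the higher and -0.386 among the lower genes, 62 rose by over 1 on the log2 scale and 4 fell by over 1. The libraries of the groups did not overlap for 868 of the higher and 833 of the lower genes, and over all genes tested 10% had all 4 sgRUVBL1 libraries above the controls and 11.3% below. The higher genes took 8.61% of all transcripts in sgRosa and 11.4% in sgRUVBL1, and the lower genes 11.3% and 8.97%. The count was 1214 without sgRUVBL1 replicate 1, 1196 without its replicate 2, and 858 (484 higher, 374 lower) without replicates 1 and 2 of sgRosa, and it rose to 2944 without the third sgRUVBL2 library, which enters only the shared estimate of spread.

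**Figure D2:**
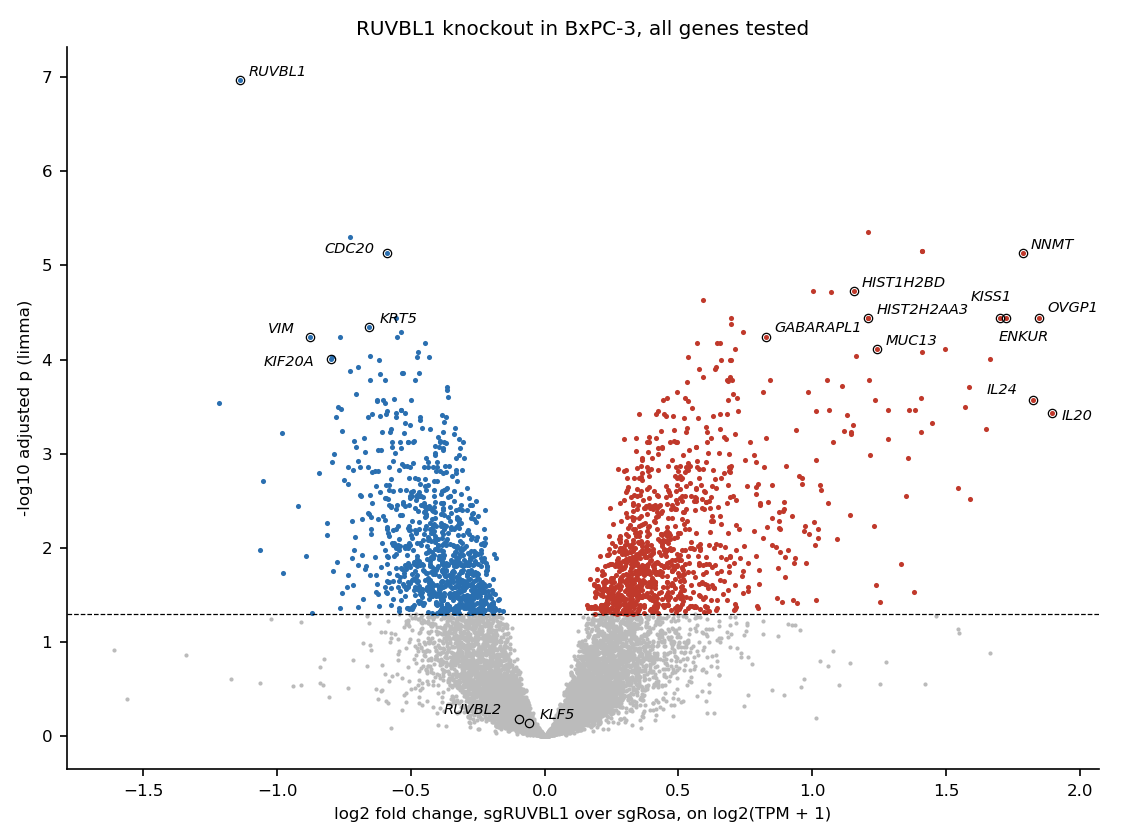
Log2 fold change of sgRUVBL1 over sgRosa (horizontal axis) against -log10 of the limma adjusted p (vertical axis), 1 point for each of 12352 genes, red for the 1043 higher and blue for the 953 lower genes past 0.05 (dashed line). IL20 lies far to the right at 1.89, and RUVBL1, at -1.14, has the smallest adjusted p.

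Genes of mitosis formed the clearest group among those that fell. Of 48 tested genes of mitosis and G2/M, 35 fell and 0 rose, with 45 differences below 0 and a median of -0.362. By unadjusted limma p, 39 were lower and 0 higher under 0.05. Over all 12352 genes, 1737 were lower and 1961 higher by that measure, the background for every unadjusted count against sgRosa given here. By limma adjusted p 7.72% of all genes were lower and 8.44% higher, the background for every adjusted list count against sgRosa in BxPC-3. In 38 of the 48 all sgRUVBL1 libraries lay below all sgRosa libraries. The median deviation of these genes from the sgRosa mean was -0.402, -0.382, -0.283 and -0.321 in the sgRUVBL1 libraries and lay between -0.033 and 0.0592 in the sgRosa libraries. KIF20A, a kinesin of the central spindle, gave 78.2, 75.8, 87.6 and 85.6 TPM against 37.8, 43.2, 53.3 and 53.5 TPM. No knockout library reached the control range, and the fold change was -0.80 (SE 0.10, limma adjusted p = 9.96e-05). CDC20, which activates the anaphase-promoting complex, gave 338, 362, 322 and 324 TPM against 217, 210, 235 and 232 TPM, again without overlap (-0.59, SE 0.06, limma adjusted p = 7.44e-06). ESPL1, the separase that opens cohesin, stood at 9.73 to 13.03 TPM against 5.92 to 7.38 TPM (-0.71, SE 0.16, limma adjusted p = 0.00767). The number of mitosis genes called was 18 without sgRosa replicates 1 and 2, 29 without replicates 3 and 4, and 41 without the third sgRUVBL2 library.

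Promoters of mitotic genes are known for CCAAT boxes, bound by NF-Y, and for the CHR element TTTGAA, and S-phase promoters for E2F sites such as GCGGGAA. The 250 bases upstream of the RefSeq start are shown for the 3 mitotic genes named above, since these genes moved together, in GRCh38.p14, with the start and end of each window given and every match to these 3 motifs on either strand in capitals.
KIF20A, chr5:138178862-138179111, + strand: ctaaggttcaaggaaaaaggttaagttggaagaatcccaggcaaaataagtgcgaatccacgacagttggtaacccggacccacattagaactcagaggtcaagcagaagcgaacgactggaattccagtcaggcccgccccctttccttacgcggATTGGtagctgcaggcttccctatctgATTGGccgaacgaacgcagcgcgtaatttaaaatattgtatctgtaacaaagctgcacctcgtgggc
CDC20, chr1:43358731-43358980, + strand: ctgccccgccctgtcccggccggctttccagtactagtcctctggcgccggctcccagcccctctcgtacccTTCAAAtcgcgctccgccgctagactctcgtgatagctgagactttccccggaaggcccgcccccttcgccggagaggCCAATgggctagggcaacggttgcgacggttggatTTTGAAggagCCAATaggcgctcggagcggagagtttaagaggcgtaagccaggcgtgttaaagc
ESPL1, chr12:53268049-53268298, + strand: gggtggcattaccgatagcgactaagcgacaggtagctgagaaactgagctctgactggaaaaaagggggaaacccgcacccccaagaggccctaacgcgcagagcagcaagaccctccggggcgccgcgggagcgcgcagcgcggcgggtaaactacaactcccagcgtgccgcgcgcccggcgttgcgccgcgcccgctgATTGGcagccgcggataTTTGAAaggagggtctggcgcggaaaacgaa
CDC20 held CCAAT 100 and 55 bases and TTTGAA 178 and 65 bases upstream, ESPL1 held CCAAT at 48 and TTTGAA at 31 bases, and KIF20A held CCAAT at 94 and 67 bases. Among 41 mitosis genes with a promoter in the table, 56.1% held TTTGAA and 78% held CCAAT. The shares were 8.59% and 35.6% among 9924 tested genes with a promoter, and 13.6% and 33% among all 27305 promoters of the table. Among 765 lower genes 12.2% held TTTGAA and 42% CCAAT, and among 817 higher genes 8.45% and 36.7%. These are matches of letters and not sites of binding.

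DNA replication genes fell as well. Of 56 tested, 25 fell and 1 rose, with 49 below 0 and a median of -0.331. RRM2, the regulated subunit of ribonucleotide reductase, gave 45.2, 38.9, 30.7 and 27.8 TPM in sgRosa and 21.1, 19.5, 20.04 and 19.3 TPM in sgRUVBL1. The groups did not overlap, and sgRosa replicates 1 and 2 were the highest libraries (-0.78, SE 0.12, limma adjusted p = 0.000403). PRIM1, a DNA primase subunit, gave 36.4, 35.3, 25.3 and 27.4 TPM against 17.8, 20.1, 18.3 and 17.3 TPM (-0.71, SE 0.12, limma adjusted p = 0.000728), and CDC45, a part of the replicative helicase, 29.9 to 43.9 TPM against 20.3 to 25.3 TPM (-0.62, SE 0.11, limma adjusted p = 0.00153). The gene that rose was RPA2, a subunit of the RPA single-strand DNA binding complex, from 56.4 to 67.8 TPM to 68.7 to 93.03 TPM (0.35, SE 0.10, limma adjusted p = 0.0218). The list's median deviation was 0.228 and 0.129 in sgRosa replicates 1 and 2 and -0.133 and -0.218 in replicates 3 and 4, against -0.211, -0.288, -0.431 and -0.407 in the sgRUVBL1 libraries, so the spread among controls reached the range of the knockout. Without sgRosa replicates 1 and 2 the number called was 10, and without replicates 3 and 4 it was 34. The upstream windows of RRM2 and PRIM1 follow, with the same capitals.
RRM2, chr2:10122489-10122738, + strand: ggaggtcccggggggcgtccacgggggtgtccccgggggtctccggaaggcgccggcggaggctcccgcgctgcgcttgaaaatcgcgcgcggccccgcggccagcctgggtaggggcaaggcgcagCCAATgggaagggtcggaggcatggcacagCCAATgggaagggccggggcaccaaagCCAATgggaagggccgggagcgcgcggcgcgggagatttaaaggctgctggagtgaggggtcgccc
PRIM1, chr12:56752324-56752573, - strand: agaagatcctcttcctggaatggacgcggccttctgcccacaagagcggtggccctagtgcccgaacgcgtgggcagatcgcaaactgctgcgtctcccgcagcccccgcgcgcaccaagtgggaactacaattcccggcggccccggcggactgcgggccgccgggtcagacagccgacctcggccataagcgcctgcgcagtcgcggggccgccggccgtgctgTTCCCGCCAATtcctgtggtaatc
RRM2 held CCAAT at 123, 93 and 66 bases and no match to GCGGGAA. In PRIM1, CCAAT at 18 bases shares a base with GCGGGAA at 24 bases, which reads on the other strand. GCGGGAA was present in 31.2% of 48 replication gene promoters, in 8.91% of the promoters of tested genes, in 11% of those of lower genes and in 5.59% of the whole table.

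Of 27 genes of homologous recombination and the Fanconi pathway, which repair broken and crosslinked DNA, 6 fell and 0 rose in limma (10 lower and 0 higher by unadjusted p), and all 27 differences were below 0 with a median of -0.267. The list's median deviation from the sgRosa mean was 0.194, 0.103, -0.12 and -0.147 in the sgRosa libraries. It was -0.146, -0.202, -0.346 and -0.282 in the sgRUVBL1 libraries, so the spread among controls reached the range of the knockout. FANCL, the ubiquitin ligase of the pathway, gave 32.2, 31.4, 24.8 and 32.6 TPM against 19.6, 17.4, 19.6 and 20.2 TPM (-0.62, SE 0.11, limma adjusted p = 0.000913), and FANCD2, its substrate, 16.8 to 22.5 TPM against 12.5 to 14.6 TPM (-0.43, SE 0.13, limma adjusted p = 0.031). The count was 2 without sgRUVBL1 replicate 1 or 2, 1 without sgRosa replicate 1, 3 without sgRosa replicate 2 and 1 without both of these.

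Histone genes of the chromosomal clusters moved the other way. Of 13 tested, 5 rose and 0 fell (8 higher and 0 lower by unadjusted limma p), with a median of 0.476. HIST2H2AA3 gave 26.8, 30.8, 36.2 and 33.01 TPM in sgRosa and 103, 81.7, 61.3 and 58.4 TPM in sgRUVBL1. No library of the groups overlapped, and sgRUVBL1 replicates 1 and 2 were the highest (1.21, SE 0.13, limma adjusted p = 3.6e-05). This gene has an identical copy, HIST2H2AA4, to which the same values were given, so the share of each is uncertain. HIST1H2BD rose from 50.3, 47.9, 58.5 and 52.7 TPM to 144, 130, 92.9 and 109 TPM (1.16, SE 0.12, limma adjusted p = 1.86e-05). HIST1H2BK rose from 211 to 241 TPM to 326 to 456 TPM (0.71, SE 0.09, limma adjusted p = 7.66e-05), HIST1H2AG by 0.72 (SE 0.23, limma adjusted p = 0.0425, a call lost in 10 of 18 alternatives) and HIST2H2BE by 0.48 (SE 0.13, limma adjusted p = 0.0176). RNA was selected by its poly-A tail, and most transcripts of these clusters lack one, so the values count polyadenylated forms. The number called was 3 without sgRUVBL1 replicate 2, without sgRosa replicate 2, and without sgRosa replicates 1 and 2. The windows upstream of the first histone genes named above follow.
HIST1H2BD, chr6:26157871-26158120, + strand: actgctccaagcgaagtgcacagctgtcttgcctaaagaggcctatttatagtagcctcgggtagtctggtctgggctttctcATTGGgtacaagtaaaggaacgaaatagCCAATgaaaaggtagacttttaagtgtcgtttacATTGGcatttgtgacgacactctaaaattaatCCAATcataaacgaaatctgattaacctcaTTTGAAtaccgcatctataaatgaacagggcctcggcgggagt
HIST2H2AA3, chr1:149842751-149843000, - strand: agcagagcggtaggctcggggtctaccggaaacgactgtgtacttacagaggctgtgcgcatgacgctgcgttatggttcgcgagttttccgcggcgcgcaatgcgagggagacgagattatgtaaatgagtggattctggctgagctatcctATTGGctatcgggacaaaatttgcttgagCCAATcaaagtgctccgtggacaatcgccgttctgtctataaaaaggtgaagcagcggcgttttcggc
HIST1H2BD held CCAAT at 167, 139, 105 and 73 bases and TTTGAA at 43 bases, and HIST2H2AA3 held CCAAT at 97 and 68 bases. Of 11 histone gene promoters 90.9% held CCAAT and 81.8% the TATA box letters TATAAA, which were in 5.94% of the promoters of tested genes and in 11.1% of the table.

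**Figure D3:**
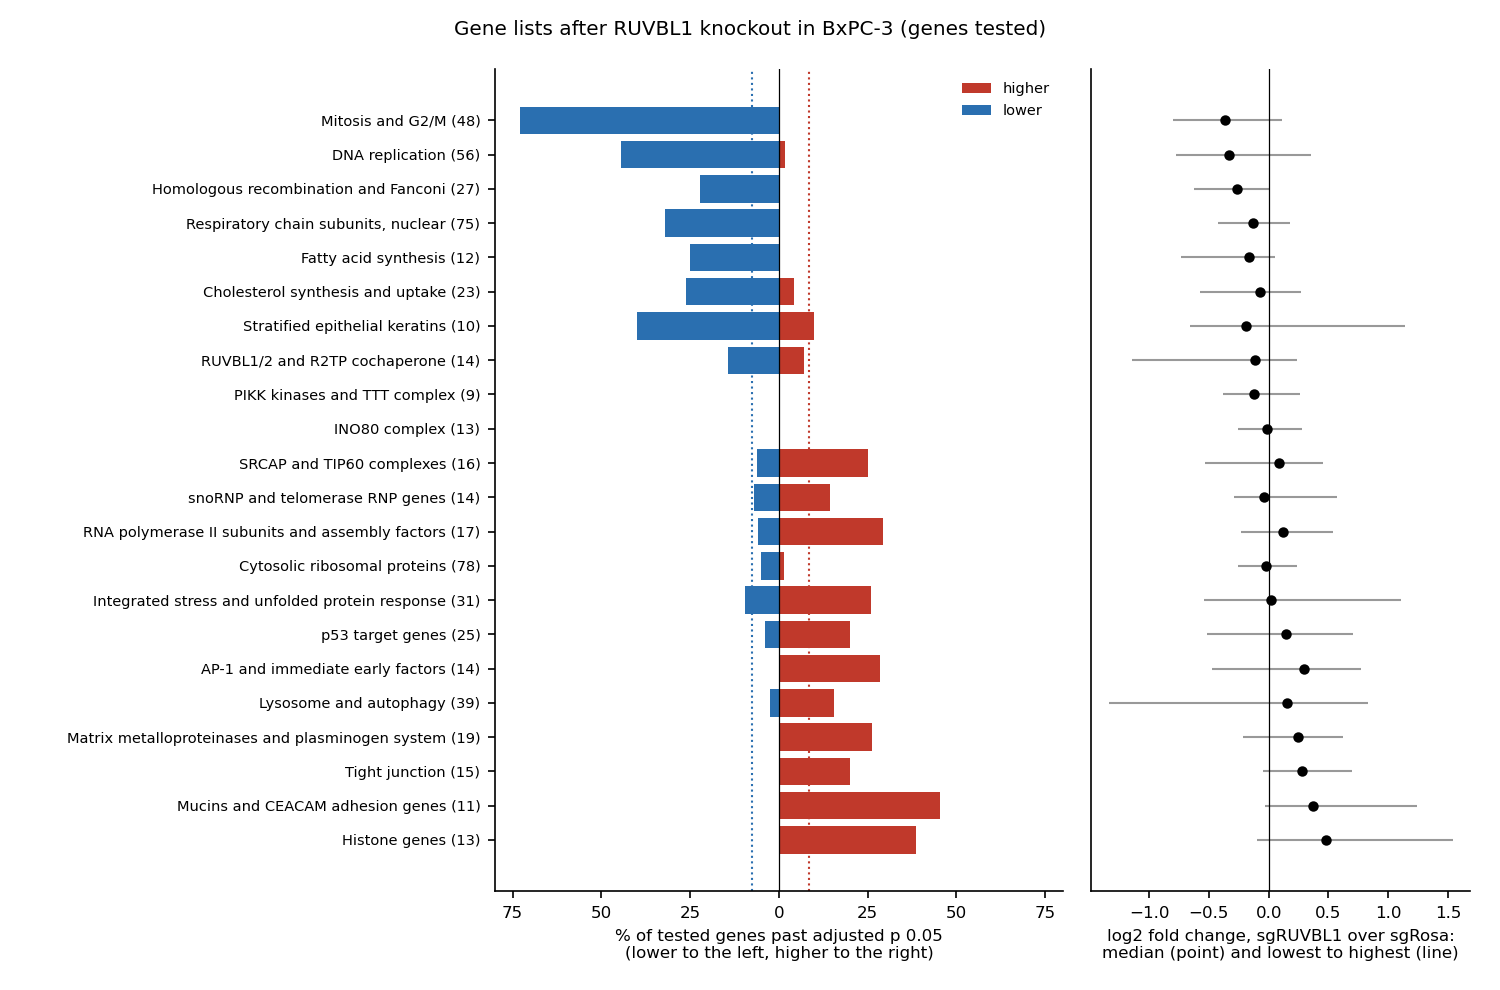
Left, percent of the tested genes of each list (number in brackets) higher (red, to the right) or lower (blue, to the left) past adjusted p 0.05, with dotted lines at the shares of all genes, 8.44% and 7.72%. Right, the median log2 fold change of each list (points) and its lowest and highest gene (lines), from -0.362 for mitosis to 0.476 for histone genes.

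In the R2TP and prefoldin-like cochaperone list of 14 genes, RUVBL1 and PIH1D1 fell and ECD rose, with a median of -0.111. PIH1D1, which carries clients to the ring, went from 99.4 to 122 TPM to 75.8 to 94.9 TPM (-0.33, SE 0.08, limma adjusted p = 0.0137), and ECD, which binds the cochaperone, from 28.3 to 32.6 TPM to 32.97 to 39.2 TPM (0.24, SE 0.07, limma adjusted p = 0.0328), a call lost in 8 of 18 alternatives. The number called was 1 without sgRUVBL1 replicate 2 or sgRosa replicate 2 and 5 without the third sgRUVBL2 library. Of 13 INO80 subunits and 9 genes of the PIKK kinases and their TTT assembly factors, 0 passed the limma test in either direction. By unadjusted p, 2 INO80 genes were higher and 2 lower, and 2 PIKK genes were lower and 0 higher. Over all 12352 genes 1961 were higher and 1737 lower by unadjusted p, so such small counts say little about these lists. The largest difference of the PIKK list was that of ATM, at -0.38 (SE 0.17, limma adjusted p = 0.129). MTOR differed by -0.23 (limma adjusted p = 0.241), with means of 38.3 and 32.8 TPM.

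Of 16 further genes of SRCAP and TIP60, 4 rose and 1 fell. EPC2 and EPC1, scaffold proteins of the TIP60 histone acetyltransferase, rose by 0.45 (SE 0.09, limma adjusted p = 0.00219) and 0.42 (SE 0.11, limma adjusted p = 0.0143). ZNHIT1, an SRCAP subunit, rose by 0.26 (SE 0.07, limma adjusted p = 0.0231), and the acetyl-histone reader YEATS4 fell from 27.9 to 36.7 TPM to 19.8 to 23.8 TPM (-0.53, SE 0.10, limma adjusted p = 0.0013). With the libraries scaled by the median of ratios, without sgRosa replicate 2, without replicates 1 and 2 or without replicates 3 and 4, 3 of the 16 passed. Among 14 snoRNP and telomerase genes NOP58, a core box C/D protein, rose (0.57, SE 0.09, limma adjusted p = 0.000422), as did the assembly factor ZNHIT3 (0.30, SE 0.06, limma adjusted p = 0.0043), while the methyltransferase FBL fell (-0.29, SE 0.07, limma adjusted p = 0.00943). Of 17 RNA polymerase II subunits and assembly factors 5 rose and 1 fell. The small subunit POLR2L went from 191 to 249 TPM to 268 to 371 TPM (0.54, SE 0.10, limma adjusted p = 0.00124), POLR2C from 87.0 to 90.3 TPM to 110 to 139 TPM (0.46, SE 0.07, limma adjusted p = 0.000258), and POLR2G from 160 to 190 TPM to 140 to 161 TPM, overlapping the controls (-0.23, SE 0.07, limma adjusted p = 0.0383). The POLR2G call was lost in 8 of 18 alternatives, and the polymerase list had 3 calls without sgRUVBL1 replicate 2 or without sgRosa replicates 1 and 2. Of 60 ribosome biogenesis genes 4 rose and 7 fell, and of 78 cytosolic ribosomal protein genes 1 rose and 4 fell, near or under the shares of all genes. The biogenesis list had 6 calls without sgRUVBL1 replicate 2 and 4 without sgRosa replicates 1 and 2, and the ribosomal protein list had 12 without the third sgRUVBL2 library and 1 without sgRUVBL1 replicate 2 or 4, sgRosa replicate 2 or 4, or either pair of sgRosa libraries.

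The largest rises past the test, among genes whose libraries did not overlap, were led by secreted proteins. IL20, a cytokine of the IL-10 family, stood at 1.72, 1.54, 4.03 and 4.96 TPM in sgRosa and 13.7, 16.6, 11.7 and 11.1 TPM in sgRUVBL1 (1.89, SE 0.29, limma adjusted p = 0.000373). Its neighbour and relative IL24 went from 6.45, 5.10, 6.36 and 5.75 TPM to 42.2, 34.0, 12.8 and 16.03 TPM (1.82, SE 0.26, limma adjusted p = 0.000268). For IL24 the first pair of knockout libraries stood well above the other pair, and both above the controls. KISS1, the precursor of kisspeptin, rose from 33.7, 39.9, 57.3 and 63.1 TPM to 147, 163, 153 and 157 TPM (1.70, SE 0.19, limma adjusted p = 3.6e-05). NNMT, which methylates nicotinamide, rose from 2.54 to 4.06 TPM to 11.2 to 14.8 TPM (1.79, SE 0.17, limma adjusted p = 7.44e-06). The others were OVGP1, a secreted glycoprotein (1.85), ENKUR, an adaptor known from sperm and cilia (1.73), SAMSN1, an adaptor protein (1.67), CD3E, a T cell receptor chain (1.65), CST1, a cystatin (1.59), and DLL4, a Notch ligand (1.59), with limma adjusted p from 3.6e-05 for OVGP1 and ENKUR to 0.00305 for CST1. CD3E is also on the leukocyte marker list. It stood at 0.938, 0.510, 0.423 and 0.424 TPM against 5.23, 6.73, 1.74 and 3.35 TPM. Of that list PTPRC (0.64, limma adjusted p = 0.043) and CD14 (0.63, limma adjusted p = 0.0259) rose and CD68 fell (-0.36, limma adjusted p = 0.046), while the summed level stayed within the ranges given above, and the part of leukocyte RNA in these values was not tested. This list had 1 or 2 calls without any 1 of the sgRUVBL1 or sgRosa libraries and 2 without sgRosa replicates 1 and 2. The CD68 call was lost in 10 of 18 alternatives, and those of PTPRC and CD14 in 9 and 7 of 17.

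A group of strong rises differed between pairs of knockout libraries. STC1, the hormone stanniocalcin, went from 28.8, 24.2, 18.97 and 19.7 TPM to 117, 93.2, 44.1 and 47.5 TPM (1.57, SE 0.23, limma adjusted p = 0.000316). PLK3, a stress-responsive kinase, gave 22.6, 22.8, 22.7 and 20.5 TPM against 45.0, 42.4, 29.0 and 32.8 TPM (0.70, SE 0.14, limma adjusted p = 0.00283). SERPINB10, a clade B serpin, gave 1.76, 2.09, 1.24 and 0.516 TPM against 9.36, 6.596, 2.92 and 2.95 TPM (1.35, SE 0.27, limma adjusted p = 0.00281). In all of these replicates 1 and 2 of sgRUVBL1 stood above replicates 3 and 4, which stood above every control. The same order held for HBEGF, an EGF receptor ligand, at 67.5 to 91.0 TPM in sgRosa and 158, 132.1, 87.7 and 92.9 TPM in sgRUVBL1, where replicate 3 overlapped the controls (0.52, SE 0.15, limma adjusted p = 0.0223). Of 10 genes of the EGF receptor family and its ligands 4 rose and 1 fell, and 1 was called without sgRUVBL1 replicate 1, 1 without its replicate 2, 2 or 3 without any 1 of the sgRosa libraries, 1 without sgRosa replicates 1 and 2 and 3 without replicates 3 and 4. Of 11 clade B serpins 4 rose and 2 fell, with 2 calls without sgRUVBL1 replicate 1 and 3 without its replicate 2 or sgRosa replicate 1. Among all genes 8.44% rose and 7.72% fell, so counts in lists this small say little.

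Among the largest falls, VIM, the mesenchymal filament protein vimentin, went from 40.0, 39.7, 30.7 and 30.4 TPM to 20.4, 17.7, 20.2 and 16.3 TPM (-0.88, SE 0.10, limma adjusted p = 5.72e-05). RAB26, a small GTPase of secretory vesicles, went from 15.3 to 19.7 TPM to 6.73 to 9.86 TPM (-0.98, SE 0.16, limma adjusted p = 0.000596), and the cytochrome P450 gene CYP1B1 from 13.2 to 17.1 TPM to 6.13 to 10.2 TPM (-0.84, SE 0.16, limma adjusted p = 0.00161). KLHL23 (-1.07), FAM72D (-1.05), C11orf74 (-0.98), PDXDC1 (-0.92) and C3orf14 (-0.81) were also among them, with limma adjusted p from 0.00196 to 0.0184. FAM72D and PDXDC1 have near-identical copies in the genome, so reads could be divided among them and their values are uncertain. Of 13 genes of the mesenchymal state 3 rose and 2 fell, beside 8.44% and 7.72% of all genes. This list had 2 calls without sgRUVBL1 replicate 1 or 2, sgRosa replicate 1, or sgRosa replicates 1 and 2.

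Among keratins, the basal marker KRT5 fell from 3224, 3436, 3164 and 3205 TPM to 1872, 1917, 2247 and 2260 TPM (-0.66, SE 0.08, limma adjusted p = 4.5e-05). The groups were wide apart, and KRT5 was also the largest fall of the 10 stratified epithelial keratins, of which 4 fell and 1 rose. KRT6A went from 2182 to 2646 TPM to 1695 to 1881 TPM (-0.45, SE 0.09, limma adjusted p = 0.00349) and KRT14 from 159 to 203 TPM to 126 to 147 TPM (-0.43, SE 0.13, limma adjusted p = 0.0348), a call lost in 9 of 18 alternatives. The gene that rose was KRT81, a hair keratin with close paralogues, at 0.673 to 4.16 TPM against 5.14 to 6.91 TPM (1.14, SE 0.25, limma adjusted p = 0.00445). The keratin list had 3 calls without sgRUVBL1 replicate 2 or 4 and without sgRosa replicate 2, replicate 3 or replicates 1 and 2. KRT19, a keratin of duct cells, fell from 2099 to 2342 TPM to 1595 to 1952 TPM (-0.35, SE 0.07, limma adjusted p = 0.00283), the only ductal marker called. SERPINB5, which encodes the serpin maspin, gave 256 to 276 TPM against 247 to 261 TPM (-0.06, SE 0.08, limma adjusted p = 0.625).

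Mucins and CEACAM adhesion genes, products of gland-like epithelium, were higher in part. Of 11 tested, 5 rose and 0 fell (6 higher and 0 lower by unadjusted limma p), with a median of 0.371. The list's median deviation from the sgRosa mean was -0.313, -0.186, 0.305 and 0.211 in sgRosa. In sgRUVBL1 it was 0.471, 0.522, 0.0628 and 0.645, so replicate 3 lay within the control range. Against the same controls sgRpa3 gave a median of 0.707, with 6 higher and 0 lower. MUC13, a membrane mucin, went from 18.8, 14.001, 26.9 and 25.5 TPM to 43.0, 53.5, 51.0 and 53.9 TPM (1.24, SE 0.15, limma adjusted p = 7.69e-05), and CEACAM5 from 192, 193, 284 and 267 TPM to 383, 402, 315 and 395 TPM (0.69, SE 0.13, limma adjusted p = 0.00153). In both genes sgRosa replicates 3 and 4 lay nearer to the knockout than replicates 1 and 2, and without the latter the list had 2 calls. Of 15 tight junction genes 3 rose and 0 fell (7 higher and 0 lower by unadjusted limma p). OCLN, which encodes occludin, rose by 0.62 (SE 0.13, limma adjusted p = 0.00376), CLDN23 by 0.57 (SE 0.11, limma adjusted p = 0.00292) and F11R by 0.32 (SE 0.08, limma adjusted p = 0.00926). The tight junction count was 5 without sgRosa replicate 3 or 4, 6 without both and 1 without replicates 1 and 2. Of 151 Moffitt Basal-like genes 22 rose and 15 fell, with a median of 0.000241, and of the tested Classical genes 17 rose and 6 fell, with a median of 0.0811. LY6D, a surface protein of squamous epithelium on the Basal-like list, fell (-0.89, SE 0.23, limma adjusted p = 0.0121) and ULBP2, a stress ligand on the same list, rose (0.66, SE 0.08, limma adjusted p = 6.62e-05). On the Classical list CEACAM7 rose (1.01, SE 0.24, limma adjusted p = 0.00933) and the carbonic anhydrase CA2 fell (-0.63, SE 0.12, limma adjusted p = 0.00221). The Basal-like count of 37 was 21 without sgRUVBL1 replicate 1, 22 without its replicate 2, 24 without sgRosa replicate 2 and 16 without sgRosa replicates 1 and 2. The Classical count of 23 was 38 without the third sgRUVBL2 library and 9 without sgRosa replicates 1 and 2.

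Stress-responsive genes rose in part. Of 31 genes of the integrated stress and unfolded protein responses 8 rose and 3 fell, with 5 calls without sgRosa replicates 1 and 2. Among all genes 8.44% rose and 7.72% fell, so the falls were near the share of all genes. GDF15, a secreted stress hormone, gave 27.1, 28.7, 45.1 and 49.3 TPM against 89.6, 84.4, 71.1 and 74.4 TPM (1.11, SE 0.15, limma adjusted p = 0.000192). The glutathione-degrading CHAC1 rose by 0.80 (SE 0.17, limma adjusted p = 0.00353) and DDIT3, which encodes CHOP, by 0.58 (SE 0.11, limma adjusted p = 0.00183). The endoplasmic reticulum chaperone CALR fell from 887 to 930 TPM to 591 to 701 TPM (-0.47, SE 0.06, limma adjusted p = 8.35e-05). Of 14 AP-1 and immediate early factors 4 rose and 0 fell (6 higher and 0 lower by unadjusted limma p). ATF3 gave 24.6 to 34.5 TPM against 43.1 to 56.8 TPM (0.77, SE 0.13, limma adjusted p = 0.000758), MAFF rose by 0.61 (SE 0.10, limma adjusted p = 0.000756) and KLF6 by 0.51 (SE 0.13, limma adjusted p = 0.0134). The AP-1 list had 2 calls without sgRUVBL1 replicate 1 or 2 or without sgRosa replicates 3 and 4, and 7 without the third sgRUVBL2 library.

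Of 25 p53 targets 5 rose and 1 fell. The shares of all genes, 8.44% higher and 7.72% lower, stand beside this and the next lists. CDKN1A, the cell cycle inhibitor p21, gave 145, 149, 156 and 151 TPM against 288, 250, 198 and 207 TPM (0.63, SE 0.10, limma adjusted p = 0.000393), and the nucleotide excision repair gene DDB2 fell from 65.8 to 69.5 TPM to 38.8 to 51.5 TPM (-0.51, SE 0.09, limma adjusted p = 0.00136). The count was 3 without any 1 of sgRUVBL1 replicates 1 and 2 and sgRosa replicates 2 and 3. Of 39 lysosome and autophagy genes 6 rose and 1 fell, with a median of 0.151 a count of 4 without sgRosa replicates 1 and 2 and one of 11 without the third sgRUVBL2 library. GABARAPL1, an autophagosome protein, went from 69.5, 68.9, 88.7 and 94.3 TPM to 150, 159, 122 and 140 TPM (0.83, SE 0.10, limma adjusted p = 5.7e-05), and CTSB, the protease cathepsin B, from 287 to 333 TPM to 425 to 493 TPM (0.57, SE 0.07, limma adjusted p = 6.62e-05). Of 27 chemokine, cytokine and NF-kB genes 4 rose and 0 fell (7 higher and 1 lower by unadjusted limma p). IL6 gave 0.777 to 2.94 TPM against 3.07 to 6.30 TPM (0.99, SE 0.23, limma adjusted p = 0.00715) and TNF 1.61 to 4.14 TPM against 5.51 to 6.73 TPM (0.88, SE 0.19, limma adjusted p = 0.00419). Without sgRosa replicates 1 and 2 the cytokine list had 0 calls, and without replicates 3 and 4 it had 10. Of 19 genes of the matrix metalloproteinase and plasminogen systems 5 rose and 0 fell (9 higher and 0 lower by unadjusted limma p), among them PLAUR, the urokinase receptor (0.48, SE 0.08, limma adjusted p = 0.000729), and TIMP3, a protease inhibitor (0.62, SE 0.10, limma adjusted p = 0.000685). That count was 9 without the third sgRUVBL2 library and 8 without sgRosa replicates 3 and 4.

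Nuclear genes of the respiratory chain were lower by small amounts. Of 75 tested, 24 fell and 0 rose (32 lower and 1 higher by unadjusted limma p), with a median of -0.132. The list's median deviation from the sgRosa mean was 0.0354, 0.0704, -0.0629 and -0.0407 in sgRosa. In sgRUVBL1 it was -0.174, -0.151, -0.0607 and -0.148, so replicate 3 lay within the control range. Against the same controls sgRpa3 gave a median of -0.199, with 22 lower and 0 higher. NDUFS7 of complex I went from 110.5 to 131.6 TPM to 77.9 to 104 TPM (-0.43, SE 0.09, limma adjusted p = 0.00539), and ATP5MC3 of the ATP synthase from 158 to 189 TPM to 127 to 137 TPM (-0.38, SE 0.06, limma adjusted p = 0.000388). ATP5PO, also of the ATP synthase, gave 397 to 479 TPM against 298 to 400 TPM, where the groups overlapped (-0.39, SE 0.09, limma adjusted p = 0.0105). The respiratory count depended on several libraries: it was 13 without sgRUVBL1 replicate 1, 14 without its replicate 2 or sgRosa replicate 2, 3 without sgRosa replicates 1 and 2, and 8 with the libraries scaled by the median of ratios. Of 12 fatty acid synthesis genes 3 fell and 0 rose (5 lower and 0 higher by unadjusted limma p), with 5 calls without the third sgRUVBL2 library. FABP5, a fatty acid carrier, gave 491, 422, 290 and 286 TPM against 237, 213, 220 and 201 TPM (-0.73, SE 0.14, limma adjusted p = 0.0021), and the desaturase FADS1 49.6 to 57.7 TPM against 28.2 to 39.8 TPM (-0.66, SE 0.12, limma adjusted p = 0.00139). Of 23 cholesterol genes 6 fell and 1 rose, beside 7.72% and 8.44% of all genes. Among those that fell was ACAT2, an acetyl-CoA acetyltransferase (-0.50, SE 0.09, limma adjusted p = 0.00139). The cholesterol count was 3 or 4 without sgRUVBL1 replicate 1, 2 or 4 and without sgRosa replicate 2 or 3, 3 without sgRosa replicates 1 and 2 and 4 without replicates 3 and 4.

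The study placed RUVBL1 with KLF5, so genes that depend on KLF5 were read out after RUVBL1 knockout. A separate BxPC-3 experiment of 8 libraries had its own 2 sgRosa libraries. Of 12447 genes tested there, 2017 were called after KLF5 knockout (16.2%), 993 lower (7.98%) and 1024 higher (8.23%). Of the 993 lower genes, 988 were tested here: 103 rose (10.4%) and 84 fell (8.5%) after RUVBL1 knockout, close to the shares of all genes, with a median of -0.00443. In the experiment that holds the RUVBL1 knockout, the same list had a median of -0.394 after KLF5 knockout and -0.0908 after RUVBL2 knockout, comparisons that share the sgRosa libraries with it. Tested directly, 568 of the 988 were higher and 113 lower in sgRUVBL1 than in sgKLF5. Of the 1024 genes higher after KLF5 knockout 868 were tested, and 15.2% rose and 7.14% fell after RUVBL1 knockout. The count of 187 KLF5-dependent genes called was 121 without sgRUVBL1 replicate 2, 292 without the third sgRUVBL2 library and 87 without sgRosa replicates 1 and 2.

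The study's own lists were chosen on libraries of this study, so they are no independent evidence of direction. Of 245 KLF5 targets in BxPC-3, 28 fell and 12 rose, with 149 differences below 0 and a median of -0.0674. This list leaned lower, unlike the list of the separate experiment. Of 85 direct KLF5 targets set in T3M-4, 7 fell and 9 rose, with a median of -0.011. Over all genes tested, 7.72% fell and 8.44% rose. KRT5 was on both. TNNI2, a troponin subunit on the BxPC-3 list, fell (-0.76, SE 0.25, limma adjusted p = 0.0436), a call lost in 10 of 18 alternatives, and NDRG1, on the same list and known for its induction by hypoxia, rose (0.72, SE 0.10, limma adjusted p = 0.000258), as did C1orf116 (0.52, SE 0.11, limma adjusted p = 0.00417). On the direct list IGFL1, a secreted growth factor-like protein, gave 209, 211, 404 and 437 TPM against 618, 725, 715 and 749 TPM (1.23, SE 0.28, limma adjusted p = 0.00587). MDGA1 rose by 1.02 (SE 0.24, limma adjusted p = 0.00788), and BCL2L1, which encodes the survival protein BCL-xL, by 0.68 (SE 0.09, limma adjusted p = 0.000163). The BxPC-3 list had 40 calls in all, 26 without sgRUVBL1 replicate 2, 24 without sgRosa replicates 1 and 2 and 73 without the third sgRUVBL2 library. The direct list had 16, with 9 without sgRUVBL1 replicate 1 or 2 and 7 without sgRosa replicates 1 and 2.

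The knockouts of the partners were compared directly. Between sgRUVBL1 and sgRUVBL2, 4 genes passed in limma, 0.0324% of those tested, with 2 higher (0.0162%) and 2 lower (0.0162%), while 1218 were higher and 509 lower at an unadjusted p under 0.05. The median SE of a difference was 0.13, and a difference of that size would not have passed. RUVBL1 itself was lower in sgRUVBL1 than in sgRUVBL2 (-0.88, SE 0.08, limma adjusted p = 2.6e-05), where it stood at 97.0, 92.5 and 88.5 TPM. RUVBL2 was higher (1.17, SE 0.13, limma adjusted p = 0.000332), at 128, 74.5 and 80.05 TPM in sgRUVBL2. CCDC134 was higher in sgRUVBL1 (0.72, SE 0.11, limma adjusted p = 0.00983), at 4.81 to 5.55 TPM against 2.59, 2.76 and 2.89 TPM, and 4.04 to 5.36 TPM in sgRosa. NIT2, an omega-amidase, was lower (-0.37, SE 0.06, limma adjusted p = 0.0219), at 57.2 to 67.2 TPM against 80.7, 80.9 and 80.3 TPM, with 73.9 to 80.9 TPM in sgRosa. CXCL8, which encodes the chemokine IL-8, gave 18.3, 15.02, 21.9 and 25.5 TPM in sgRUVBL1 and 44.9, 38.0 and 41.8 TPM in sgRUVBL2. Those libraries did not overlap, but the difference did not pass (-1.03, SE 0.20, limma adjusted p = 0.103).

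Of the lists described above, 0 genes beyond RUVBL1 and RUVBL2 themselves passed between the partners. At an unadjusted limma p under 0.05, 2 mitosis genes were higher and 10 lower in sgRUVBL1, and 7 of 27 cytokine and NF-kB genes were lower and 0 higher. Side by side against the sgRosa libraries that both share, sgRUVBL2 changed 1207 genes (9.77%), 529 higher (4.28%) and 678 lower (5.49%). The mitosis median was -0.362 after RUVBL1 and -0.281 after RUVBL2 knockout, the replication median -0.331 and -0.348, the histone median 0.476 and 0.357, and the cytokine median 0.15 and 0.435. KRT5 differed by 0.02 between the partners (SE 0.08, limma adjusted p = 0.924) and KIF20A by -0.10 (SE 0.11, limma adjusted p = 0.671). HIST2H2AA3 differed by 0.47 (SE 0.14, limma adjusted p = 0.267) and OVGP1 by 0.98 (SE 0.22, limma adjusted p = 0.183), and neither passed.

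**Figure D4:**
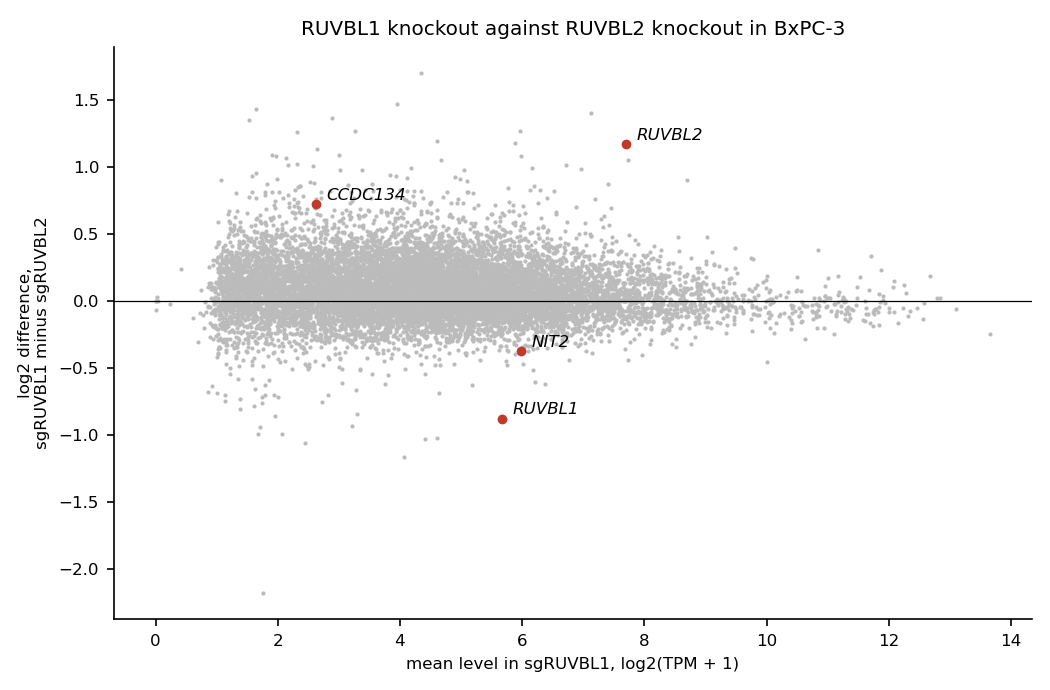
Mean level in sgRUVBL1 as log2(TPM + 1) (horizontal axis) against the log2 difference between sgRUVBL1 and sgRUVBL2 (vertical axis), 1 point per gene. The 4 genes past adjusted p 0.05 are red: RUVBL2 (1.17) and CCDC134 (0.72) above 0, and RUVBL1 (-0.88) and NIT2 (-0.37) below.

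Against KLF5 knockout the difference was broad. In limma 2358 genes were higher (19.1%) and 3055 lower (24.7%) in sgRUVBL1 than in sgKLF5, together 43.8% of those tested. KLF5 mRNA itself stood at 348 to 384 TPM in the sgKLF5 libraries, above the 308 to 354 TPM of sgRosa in part, so its level does not check those labels. KISS1 stood at 12.9, 22.03, 14.9 and 21.8 TPM in sgKLF5, below the controls, and at 147 to 163 TPM in sgRUVBL1, above them (3.08, SE 0.19, limma adjusted p = 1.45e-09). LEMD1, a gene of the Basal-like list, gave 5.15 to 13.4 TPM in sgRUVBL1 and 0 to 0.498 TPM in sgKLF5 (3.03, SE 0.35, limma adjusted p = 1.97e-06). The neutrophil chemokines went the other way: CXCL1 stood at 508 to 710 TPM in sgKLF5 and 20.2 to 27.1 TPM in sgRUVBL1 (-4.68, SE 0.20, limma adjusted p = 3.24e-11), and CXCL8 at 293 to 402 TPM and 15.02 to 25.5 TPM (-4.10, SE 0.18, limma adjusted p = 4.97e-11). KRT5 stood at 1508 to 1886 TPM in sgKLF5, lower than in sgRUVBL1 (0.27, SE 0.08, limma adjusted p = 0.00732). Of 56 replication genes 48 were lower and 0 higher in sgRUVBL1 than in sgKLF5, with a median of -0.698, and of 60 ribosome biogenesis genes 49 were lower and 1 higher. Of 48 mitosis genes 18 were lower and 1 higher.

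Loss of CDK1, the mitotic kinase, or RPA3, a subunit of the replication protein RPA, stops cells from dividing, and their mean served as a comparison for such loss. In limma 1362 genes were higher (11%) and 1173 lower (9.5%) in sgRUVBL1, together 20.5% of those tested. IL24 stood at 0.751 and 0.887 TPM in sgCDK1 and 2.91 and 3.68 TPM in sgRpa3, below all controls (3.13, SE 0.26, limma adjusted p = 1.83e-06). STC1 (2.26, limma adjusted p = 9.02e-06), IL20 (1.96, limma adjusted p = 0.000155) and ESM1, an endothelial proteoglycan gene (1.81, limma adjusted p = 3.97e-05), were higher in sgRUVBL1 as well. RAB26 (-1.56, limma adjusted p = 8.41e-06) and TNNI2 (-1.49, limma adjusted p = 0.000471) were lower. KRT5 stood at 3109 to 3391 TPM in these 4 libraries, within the span of sgRosa or just under it, and was lower in sgRUVBL1 (-0.62, SE 0.08, limma adjusted p = 3.06e-05). Of 48 mitosis genes 26 were lower and 1 higher in sgRUVBL1 than in the mean of both. Side by side against sgRosa, sgCDK1 changed 5.78% of genes (3.67% higher, 2.11% lower), sgRpa3 20.7% (9.08% higher, 11.7% lower) and sgKLF5 34.3% (20.6% higher, 13.7% lower). The mitosis median was 0.316 in sgCDK1 and -0.414 in sgRpa3, the replication median 0.178 and -0.629, and the histone median 0.274 and 0.114, all with the same control libraries. RUVBL1 mRNA was itself low in sgRpa3, at 64.9 and 67.9 TPM, and was lower still in sgRUVBL1 than in the mean of sgCDK1 and sgRpa3 (-0.76, SE 0.07, limma adjusted p = 6.85e-06).

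RUVBL1 was also knocked out in T3M-4, AsPC-1 and CFPAC-1, each with its own sgRosa libraries. Another AsPC-1 experiment with RUVBL1 knockout and its own sgRosa libraries was not used here. More genes passed there than in BxPC-3: 60.8% in T3M-4 (3 knockout libraries), 52.3% in AsPC-1 (4) and 44% in CFPAC-1 (4). The log2 fold change of RUVBL1 mRNA was -1.78 in T3M-4, -1.398 in AsPC-1 and -1.87 in CFPAC-1, against -1.14 in BxPC-3. Of the genes that rose in BxPC-3, 869 of 998 tested rose in T3M-4 (87.1%, against 46.1% of all genes there), 707 of 941 in AsPC-1 (75.1% against 37.1%) and 277 of 961 in CFPAC-1 (28.8% against 6.6%). Of those that fell, 647 of 942 fell in T3M-4 (68.7% against 14.7%), 465 of 905 in AsPC-1 (51.4% against 15.2%) and 550 of 927 in CFPAC-1 (59.3% against 37.4%). Between 13 and 49 genes per line and direction were called the opposite way. The median over all genes was 0.254 in T3M-4, 0.162 in AsPC-1 and -0.198 in CFPAC-1, so the share called in each direction differed between lines for all genes.

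Of the genes that rose in BxPC-3, 900 were tested in every line, and 188 of these rose in all 4 lines. Of those that fell in BxPC-3, 892 were tested in every line, and 231 fell in all 4. The share over all genes tested in the 4 lines was not taken, so these counts have no background beside them. KIF20A fell, with log2 fold changes of -0.80, -1.32, -0.83 and -0.55 in BxPC-3, T3M-4, AsPC-1 and CFPAC-1, and RRM2 with -0.78, -1.12, -1.32 and -0.93. CDCA7, a cell cycle gene of the DNA methylation machinery, gave -0.76, -0.89, -0.84 and -0.79, and PIR, which encodes pirin, -0.76, -0.76, -0.45 and -0.89. Among the rises, HIST2H2AA3 gave 1.21, 0.97, 2.45 and 0.51, and OVGP1 1.85, 0.94, 1.85 and 0.75. KISS1 rose in the 3 lines where it was tested, by 1.70, 2.21 in T3M-4 and 2.404 in AsPC-1. KRT5 was tested in BxPC-3 and T3M-4 and gave -2.25 in the latter (limma adjusted p = 1.28e-09). MUC13 rose by 2.18 in T3M-4 and 0.48 in CFPAC-1, while in AsPC-1 the difference was 0.05 (limma adjusted p = 0.68). KLF5 mRNA moved in different directions, with 0.41 in T3M-4 (limma adjusted p = 0.0053), -0.53 in AsPC-1 (limma adjusted p = 8.45e-05) and -0.56 in CFPAC-1 (limma adjusted p = 0.000132). Lists are given by line beside the shares of all genes there, lower in 14.7%, 15.2% and 37.4% and higher in 46.1%, 37.1% and 6.6% of T3M-4, AsPC-1 and CFPAC-1. Of 48 mitosis genes 44 fell and 0 rose in T3M-4, 17 fell and 2 rose in AsPC-1, and 23 fell and 1 rose in CFPAC-1. Of the mucin and CEACAM genes 12 of 13 rose and 0 fell in T3M-4, 4 of 11 rose and 2 fell in AsPC-1, and 1 of 10 rose and 4 fell in CFPAC-1. Of 75 respiratory chain genes 2 rose and 50 fell in T3M-4, 16 rose and 13 fell in AsPC-1, and 37 rose and 6 fell in CFPAC-1.

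**Figure D5:**
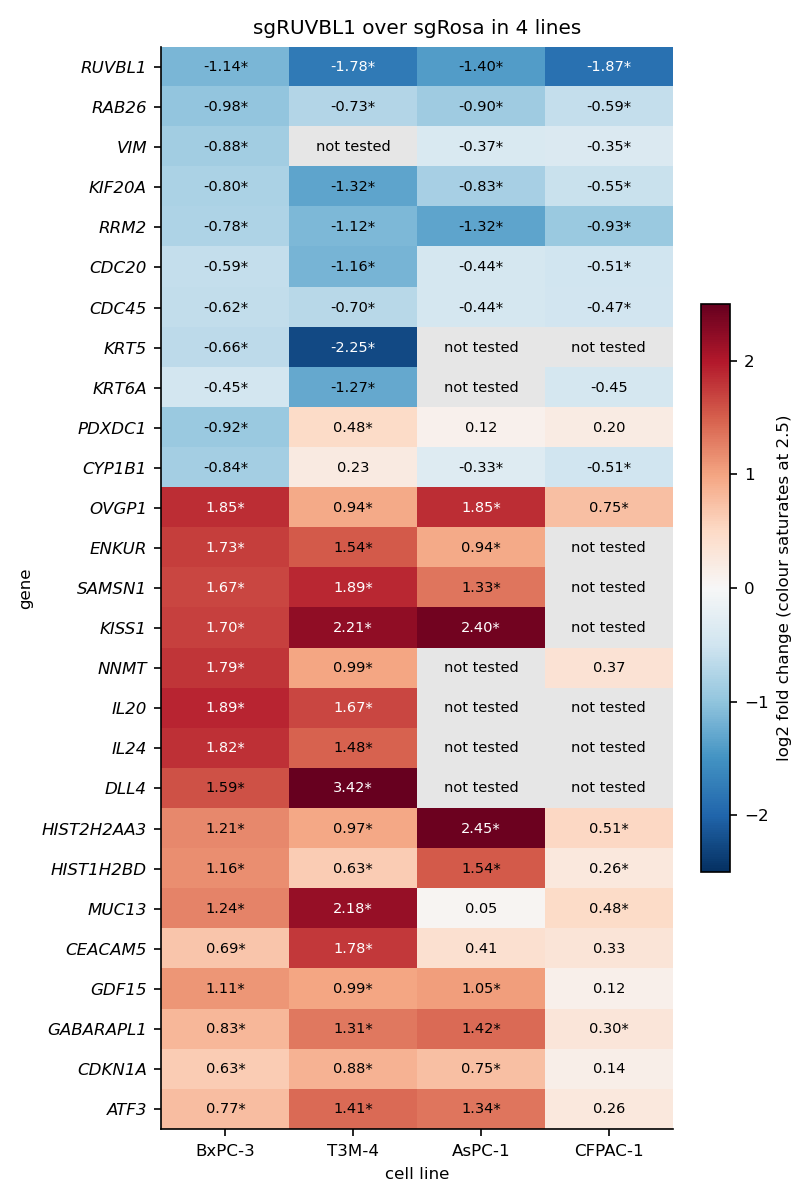
Log2 fold change of sgRUVBL1 over the sgRosa libraries of the same line for 27 genes (rows) in 4 lines (columns), with red for higher, blue for lower, an asterisk for adjusted p under 0.05 in limma and grey where a gene was not tested. RUVBL1, KIF20A and RRM2 are lower and HIST2H2AA3 and OVGP1 higher in all 4 lines.

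RUVBL1 lies on chromosome 3 from 128064785 to 128153914 in GRCh38.p14, on the long arm, and neighbouring genes were checked since a cut can affect the chromosome around it. Of 14 tested genes within 1 Mb, TPRA1 (0.53, SE 0.08, limma adjusted p = 0.000534) and the translocon gene SEC61A1 (0.19, SE 0.06, limma adjusted p = 0.0329, a call lost in 8 of 18 alternatives) rose, and MCM2, a subunit of the replicative helicase, fell (-0.36, SE 0.10, limma adjusted p = 0.0243). After RUVBL2 knockout, against the same sgRosa libraries, TPRA1 differed by 0.35, MCM2 by -0.43 and SEC61A1 by 0.05. Of 229 genes further out on the long arm 10 rose and 29 fell, with a median of -0.00469. Of 448 genes on the other side 43 rose and 36 fell, with a median of 0.00297. Over all genes tested 8.44% rose and 7.72% fell, with a median of 0.00801. Falls thus outnumbered rises further out on the long arm though the median was near 0, and the cause was not tested.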

How the data were processed

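RNA was extracted on day 5, poly-A selected and sequenced from 1 end. The authors quantified reads with kallisto against hg38, summarised them to genes with tximport, removed low-abundance transcripts at a limit not given in the sources used here, and deposited TPM values per gene and library. Genes averaging 1 TPM or more across the sgRosa and sgRUVBL1 libraries were tested on log2(TPM + 1) with limma 3.58.1 (trend, R 4.3.3), fitting all 19 libraries of the BxPC-3 experiment so that groups shared 1 estimate of spread. P-values were adjusted by the Benjamini-Hochberg method over all genes tested, with a threshold of 0.05. The fit was tested on simulated data. Groups came from the sample titles. Named were the genes the study is about, the 10 largest rises and 10 largest falls past the threshold whose groups did not overlap, up to 3 of each per list, and the 4 largest each way per other contrast. Some genes this rule selects are not reported here. Others were chosen after their values were seen. The members and lists were chosen with earlier results of these data known. Replicate numbers were not used to pair samples: deviations of same-numbered libraries correlated at 0.205, -0.00669, 0.0649 and 0.347. With sgRosa replicates 1 to 4 in turn, sgRUVBL1 replicate 1 correlated at 0.205, 0.271, -0.221 and -0.252. For sgRUVBL1 replicate 4 these were -0.271, -0.31, 0.228 and 0.347, while replicates 2 and 3 lay near 0. The main tests took libraries as independent, and whether replicates 1 and 2 share a guide or batch across groups was not tested. Of 19875 gene names, 18600 matched a current RefSeq symbol and 700 a single older one. Promoters came from RefSeq (GRCh38.p14). Alternatives changed the pseudocount, filter, scaling, fitted groups and libraries.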

Additional observations from a re-analysis of the deposited data

Results flagged for a closer look

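In some groups of 4 libraries 1 library lay far from the others of its group, by a criterion that chance meets in about 1 in 20 groups. CD3E stood at 0.938 TPM in sgRosa replicate 1, C3orf14 at 10.5 TPM in sgRosa replicate 2, FANCL at 24.8 TPM in sgRosa replicate 3, PTPRC at 2.73 TPM in sgRosa replicate 3, PLK3 at 20.5 TPM in sgRosa replicate 4 and TNNI2 at 43.0 TPM in sgRosa replicate 1. In the knockout, ATP5MC3 stood at 137 TPM and KRT6A at 1880 TPM in sgRUVBL1 replicate 3.

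For 5 named genes every knockout library of another line moved opposite to every knockout library of BxPC-3, relative to their own controls, and the difference between the lines was not tested. PDXDC1 and CYP1B1, lower in BxPC-3, had log2 fold changes of 0.484 and 0.232 in T3M-4. HIST1H2BK, higher in BxPC-3, had -0.234 in T3M-4. C11orf74, lower in BxPC-3, had 0.426 in AsPC-1, and KLF6, higher in BxPC-3, had -0.215 in AsPC-1.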

How the results depend on the processing

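The depth of the libraries is unknown, and 4 libraries a group limit what could be detected. Against sgRosa, leaving out 1 library of either group gave 1196 to 2038 changed genes (575 to 1212 higher, 597 to 878 lower). Without sgRosa replicates 1 and 2, an alternative chosen after seeing the data, 858 changed (484 higher, 374 lower), and without the third sgRUVBL2 library, likewise chosen later, 2944 changed (1511 higher, 1433 lower). Only sgRUVBL1 and sgRosa libraries of BxPC-3 were left out in turn, in this and the following ranges. The groups compared with sgRUVBL1 below were not treated so. Against sgRUVBL2 the count of 4 ranged from 2 to 5 in this way. It was 9 with median-of-ratios scaling, 1 with only those groups fitted and 5 without the third sgRUVBL2 library. Against sgCDK1 and sgRpa3 the count ranged from 1664 to 2573 and was 3556 without the third sgRUVBL2 library. BxPC-3 calls repeated in T3M-4 numbered 1516, with 928 to 1650 when 1 library was left out, 621 without sgRosa replicates 1 and 2 and 2050 without the third sgRUVBL2 library. In AsPC-1 they numbered 1172, with 693 to 1279, 574 and 1604, and in CFPAC-1 827, with 576 to 754, 407 and 1197. Of KLF5-dependent genes 187 were called, with 121 to 182, 87 without sgRosa replicates 1 and 2 and 292 without the third sgRUVBL2 library. Those lower numbered 84, with 50 to 75, 38 and 146, and those higher 103, with 71 to 114 and 49 without sgRosa replicates 1 and 2. The cause of these shifts was not tested, beyond the smaller number of libraries.

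With the replicate number as a block, 2184 genes changed (1157 higher, 1027 lower), 4 against sgRUVBL2, 5547 against sgKLF5 and 2807 against sgCDK1 and sgRpa3. Of 108 named genes past the threshold, 64 were tested and passed under all 18 alternatives, 6 passed under all those in which they were tested, and 0 reversed. Calls were lost most often for HIST1H2AG, TNNI2 and CD68 (10 alternatives each), KRT14 and PTPRC (9), ECD, POLR2G and SEC61A1 (8), CD14 (7), and RPA2, MCM2 and FANCD2 (6).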

Other observations

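TXNIP, a thioredoxin-binding arrestin that responds to glucose, and its relative ARRDC4 were chosen after their values were seen. TXNIP stood at 162, 167, 281 and 310 TPM in sgRosa and at 418, 553, 495 and 600 TPM in sgRUVBL1 (1.21, SE 0.17, limma adjusted p = 0.000167). ARRDC4 stood at 5.995, 3.38, 8.83 and 8.95 TPM and at 14.4, 17.2, 13.8 and 16.3 TPM (1.14, SE 0.18, limma adjusted p = 0.000588). In both genes the groups did not overlap, and sgRosa replicates 3 and 4 were nearer to the knockout than replicates 1 and 2.

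Of 32 genes of glycolysis and the hypoxia response 8 rose and 5 fell, with a median of -0.0375, beside 8.44% and 7.72% of all genes. In this list 7, 6, 7 and 7 were called without sgRUVBL1 replicate 1, sgRUVBL1 replicate 2, sgRosa replicate 1 and sgRosa replicate 2, and 4 without both of the latter. Of 20 genes of the TGF-beta and BMP response 5 rose and 0 fell in limma (6 higher and 0 lower by unadjusted p), with 2 or 3 calls without sgRUVBL1 replicate 1 or 2 or sgRosa replicate 1, 2 or 4, and 1 without sgRosa replicates 1 and 2. Of 8 chaperonin subunits 0 passed in limma, and 1 was lower and 0 higher by unadjusted p.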
